A study of Mus musculus with 9 samples.

Results

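The 6 pancreas RNA-seq libraries labelled as Groucho mutants were pooled into 1 side and set against the 3 control libraries, to ask which genes differed from control in every mutant library whatever its genotype label. All libraries came from whole pancreas of e18.5 mouse embryos of a mixed strain with C57BL6, 1 library per replicate, and every embryo carried Pdx1:Cre. The 3 controls carried Pdx1:Cre and no Groucho allele in their label, 3 libraries were labelled Pdx1:Cre;Grg3, and 3 were labelled Pdx1:Cre;Grg3Grg4. The labels do not give the form of the Grg3 and Grg4 alleles, and no untreated or Cre-free pancreas entered the comparison. A gene was called separated when all 6 mutant libraries lay above, or all 6 lay below, each of the 3 controls in TMM-normalized CPM, the reads of a gene scaled to 1000000 reads per library. Of 19166 genes with enough counts to test, from 55453 gene symbols in the files, 2043 were separated.

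Grg3 and Grg4 are older names of the genes Tle3 and Tle4. They encode Groucho co-repressors, proteins that do not bind DNA themselves but are recruited by DNA-binding factors such as Hes, Tcf/Lef, Nkx and Fox proteins and silence the genes those factors occupy. Pdx1:Cre is active in the pancreatic epithelium from the early bud, and also in the neighbouring antral stomach and duodenum, so acinar, duct and endocrine cells descend from cells that could recombine while mesenchyme, vessels, nerves and blood do not. Acinar cells, which make the digestive enzymes, give a large share of the messenger RNA of the pancreas late in gestation, while islet cells give a small one. In whole-organ RNA, fewer cells of a type and less RNA per cell cannot be told apart.

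The libraries held 46817453 to 62744499 reads counted in genes. Acinar Cpa1 was at 9418 to 23156 CPM in all 9 libraries, and Ins1, Ins2, Gcg and Sox9 were present in each, as the tissue label would have it. By Xist, 1 control, 1 Grg3 library and all 3 Grg3Grg4 libraries were male, so sex was not balanced between the sides. On the first principal component, which held 31.6% of the variance, the controls lay between -57.8 and -37.4 and the mutant libraries between -3.05 and 70.0, with Grg3Grg4 replicate 2 at the far end. The levels of genes known from muscle and stomach were also uneven between libraries. The summed level of a list of striated muscle genes was 9.66 to 17.7 CPM in controls and 18.4 to 99.3 CPM in 5 mutant libraries, but 3042 CPM in Grg3Grg4 replicate 2. Stomach mucus genes Gkn1 and Gkn2 had no read in controls, and reached 3.63 and 6.36 CPM in Grg3 replicate 3 alone. The intestinal factor Cdx2 was at 0.02 to 0.08 CPM in controls and below 0.5 CPM in every library, highest in Grg3 replicate 1 at 0.49 CPM. Fabp2, also intestinal, was at 0 to 0.17 CPM in controls. It reached 3.34 CPM in Grg3 replicate 1 and 0.59 CPM in Grg3 replicate 3, and lay at 0.06 to 0.20 CPM in the other mutant libraries. Vil1 was at 32.4 to 41.0 CPM in controls and 14.5 to 33.7 CPM in mutants.

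Of the 19166 genes tested, 2043 were separated (10.7%), 941 with the mutant side higher (4.91%) and 1102 with it lower (5.75%). By edgeR's quasi-likelihood test with Benjamini-Hochberg adjustment, 253 genes differed between the sides at an adjusted p under 0.05 (1.32%), 108 higher in mutants (0.563%) and 145 lower (0.757%). Of these, 248 were also separated, 107 higher (0.558%) and 141 lower (0.736%), and the other 5 were not. Most separated genes differed little, with a median absolute log2 fold change of 0.43 against 0.19 over all genes tested. In 1795 separated genes the difference did not pass the test, and 221 of them had an unadjusted p of at least 0.05. The 9 libraries can be split into 6 and 3 in 84 ways, so an exact 2-sided permutation test of a single gene could reach 0.0238 at best. The number of calls rested on the controls, and fell to 82, 55 and 45 without control 1, 2 or 3, while it rose to 430 without Grg3 replicate 2. A term for sex gave 144 calls, the 5 male libraries alone gave 11 and the 4 female libraries alone 37. Of the 248 separated and called genes, 38 were called in each of 9 fits that left out 1 library, 14 higher and 24 lower, and the same 38 were called with the sex term.

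**Figure D1:**
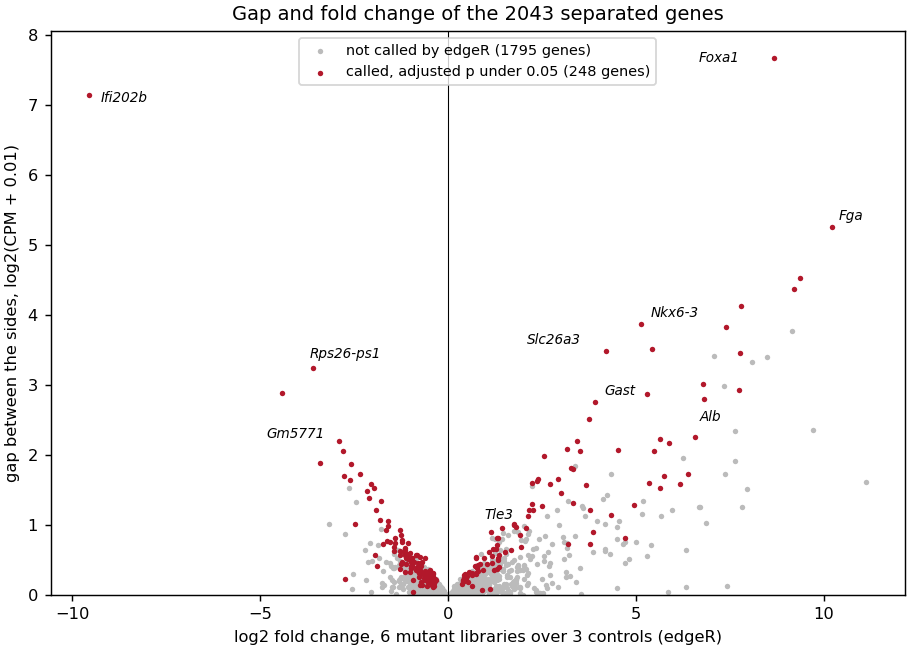
Each point is 1 of the 2043 separated genes. The x axis gives the log2 fold change of the 6 mutant libraries over the 3 controls, and the y axis the gap between the sides, the log2 ratio of the lowest library of the higher side to the highest of the lower side after adding 0.01 CPM to each. Red points (248 genes) passed an adjusted p of 0.05 and grey points (1795) did not; Foxa1 and Ifi202b have the widest gaps, at 7.67 and 7.14.

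The gap between the sides was wide for few genes. It reached 1 on the log2 scale, a clear factor of 2 between the nearest libraries of both sides, in 106 genes (0.553%), of which 84 were higher in the mutant libraries and 22 lower. Among the higher genes stood Foxa1, Nkx6-3, Gast, Slc26a3 and many genes of the liver. Among the lower ones stood trypsinogen and chymotrypsin-like genes of the acinar cell, the calcium channel gene Cacna1i and the pseudogene Rps26-ps1. The plot of gap against fold change shows that genes with like fold changes had different gaps, since the mutant libraries varied more for some genes than for others.

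The targeted genes did not fall. Tle3 stood at 63.1, 67.7 and 63.6 CPM in controls, at 148, 167 and 145 CPM in the libraries labelled Grg3, and at 131, 126 and 146 CPM in those labelled Grg3Grg4. All 6 mutant libraries lay above all 3 controls, with a log2 fold change of 1.15 (SE 0.10, adjusted p = 2.77e-04), and the call held in each fit without 1 library. Tle4 stood at 7.84, 7.79 and 7.68 CPM in controls, at 9.83, 13.0 and 13.8 CPM in Grg3 libraries and at 10.7, 15.5 and 8.63 CPM in Grg3Grg4 libraries. It was separated with the mutant side higher, but its log2 fold change of 0.62 did not pass the test (adjusted p = 0.12), and the libraries labelled for Grg4 did not stand below those labelled for Grg3 alone. These gene totals count reads from any exon, and the labels do not say which exons the alleles remove, so they check neither label, and directions below are those of libraries as labelled. Of the 6 Groucho family genes tested, Tle1 was the third that was separated, with a log2 fold change of 0.20 (adjusted p = 0.161), while Tle2, Tle6 and Aes were not separated. The median over the family was 0.26, against 0.03 over all genes tested, of which 4.91% were separated higher.

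The genes around the targeted loci were counted separately, since a targeted allele carries flanking DNA of its strain of origin. Within 5 Mb of Tle3, 18 of 127 genes tested were separated (14.2%, against 10.7% of all genes tested), 7 higher and 11 lower, and Cd276, Sema7a and Stra6 were called, all lower in mutants, against 1.32% of all genes called. Within 5 Mb of Tle4, 14 of 82 genes were separated (17.1%), and Dagla alone was called, again lower. The calls of Dagla, Sema7a and Cd276 were lost in 3, 7 and 8 of the 9 fits and with the sex term. Stra6, which encodes a retinol transporter, stood at 6.70, 30.9 and 41.9 CPM in controls and at 2.21 to 5.72 CPM in mutants. Its control 1 lay near the mutant level, and the call was lost without control 2 or 3 (adjusted p up to 0.10) and with the sex term.

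Foxa1 had the widest gap of all genes tested. It encodes a forkhead pioneer factor of endoderm, which opens chromatin in liver, gut, lung and pancreas. Its promoter, which RefSeq places on the minus strand, is shown for its letters that match a forkhead motif and an E-box.
Foxa1: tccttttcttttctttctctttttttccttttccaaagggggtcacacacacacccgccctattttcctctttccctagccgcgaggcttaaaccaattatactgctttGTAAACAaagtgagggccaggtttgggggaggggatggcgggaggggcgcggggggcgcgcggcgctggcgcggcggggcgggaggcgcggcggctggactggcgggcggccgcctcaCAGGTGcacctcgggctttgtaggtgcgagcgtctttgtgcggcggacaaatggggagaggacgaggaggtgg
This window is chr12:57546062-57546361 (GRCm38.p6, minus strand), from 250 bases before to 50 after the start in RefSeq, which lies downstream of the GENCODE start, so the window is within the span that GENCODE gives the gene. Capitals mark a match to TGTTTAC, the core a forkhead protein prefers, on the opposite strand at base -141, and a match to CACCTG on the opposite strand at base -23. Over all 32851 RefSeq promoter windows of this length, 3.65% held TGTTTAC and 20.2% held CACCTG on either strand.

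In the 3 controls Foxa1 had 2, 1 and 1 reads, or 0.04, 0.02 and 0.02 CPM. The Grg3 libraries held 14.4, 10.5 and 13.5 CPM and the Grg3Grg4 libraries 12.3, 11.4 and 13.5 CPM, with a narrow spread and no overlap with controls. The summed reads, 4333 in mutants against 4 in controls, gave a ratio of 437 (exact 95% interval 171 to 1606, counting error only). The log2 fold change was 8.68 (SE 0.25, adjusted p = 1.57e-08) and the call held under every alternative run, within each sex included. Foxa1 lies on chromosome 12 (57540628 to 57546916, GRCm38, minus strand). Ttc6, a tetratricopeptide repeat gene that starts at 57564113 on the plus strand, was also separated. Ttc6 stood at 0.19, 0.10 and 0.26 CPM in controls, at 1.55, 1.81 and 2.37 CPM in Grg3 libraries and at 2.97, 2.09 and 4.32 CPM in Grg3Grg4 libraries (log2 fold change 3.75, adjusted p = 0.00328). The other 4 genes tested within 1 Mb, Prps1l3, Mipol1, Sstr1 and Clec14a, were not separated, and their log2 fold changes lay between -0.11 and 0.08. The relatives Foxa2 and Foxa3 were not separated and had log2 fold changes of -0.40 (adjusted p = 0.174) and -0.36 (adjusted p = 0.346). Of 17 genes of the Foxa family and endoderm factor list, 2 were separated higher, Foxa1 and Nkx6-3, both called. Onecut1 was separated lower and not called, and the median was -0.07. Over all genes tested, 4.91% were separated higher, 5.75% lower and 1.32% called.

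Nkx6-3 encodes a homeodomain factor known from the gastric antrum, and Gast encodes gastrin, the hormone of antral G cells. Nkx6-3 stood at 0.35, 0.29 and 0.20 CPM in controls, at 15.7, 8.21 and 13.0 CPM in Grg3 libraries and at 9.44, 5.29 and 8.95 CPM in Grg3Grg4 libraries (log2 fold change 5.15, SE 0.41, adjusted p = 2.57e-04). Gast stood at 0.94, 0.71 and 1.12 CPM in controls and at 20.6, 19.9 and 17.5 CPM in Grg3 libraries. In Grg3Grg4 libraries Gast stood at 10.9, 7.61 and 7.61 CPM, above every control and below every Grg3 library. Its log2 fold change over control was 3.92 (SE 0.43, adjusted p = 0.00208). Both calls held in each fit that left out 1 library. They are the only 2 of the 11 stomach genes tested that were separated with the mutant side higher, against 4.91% of all genes tested. Of the 11, 9 were above 0, with a median log2 fold change of 0.84 against 0.03 over all genes tested. Tff2 was separated lower (89.3 to 134 CPM in controls, 30.4 to 80.3 CPM in mutants, adjusted p = 0.0581), and the parietal cell gene Atp4a was at 3.59 to 6.62 CPM in controls and 2.95 to 8.57 CPM in mutants. Gkn1 and Gkn2 were at 0 in controls and in 3 and 4 of the 6 mutant libraries. The part that stomach tissue had in the values of Nkx6-3 and Gast was not tested.

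Slc26a3, an intestinal chloride and bicarbonate exchanger, had 8 reads in controls and 381 in mutants, a ratio of 19.2 (exact 95% interval 9.66 to 44.9). It lay between 0.836 and 1.33 CPM in all 6 mutant libraries and its call held in each fit without 1 library. The intestinal list held 14 genes tested, of which Lgals4 and Slc15a1 were separated higher and none was called by edgeR. Over all genes tested, 4.91% were separated higher. Lgals4, a gut lectin, stood at 2.21 to 2.46 CPM in controls and 3.48 to 7.76 CPM in mutants (adjusted p = 0.0536). The part that gut tissue had in the values of Slc26a3 and Lgals4 was not tested. Shisa9, a modulator of AMPA receptors, rose from 1.17 to 2.14 CPM in controls to 6.61 to 11.1 CPM in mutants (log2 fold change 2.37, adjusted p = 0.00121), in every fit without 1 library. Col2a1, a cartilage collagen, stood at 2.09 to 2.67 CPM in controls and 8.40 to 20.2 CPM in mutants (log2 fold change 2.40, adjusted p = 0.0103). The Col2a1 call was lost without any 1 control, with an adjusted p of up to 0.0853.

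**Figure D2:**
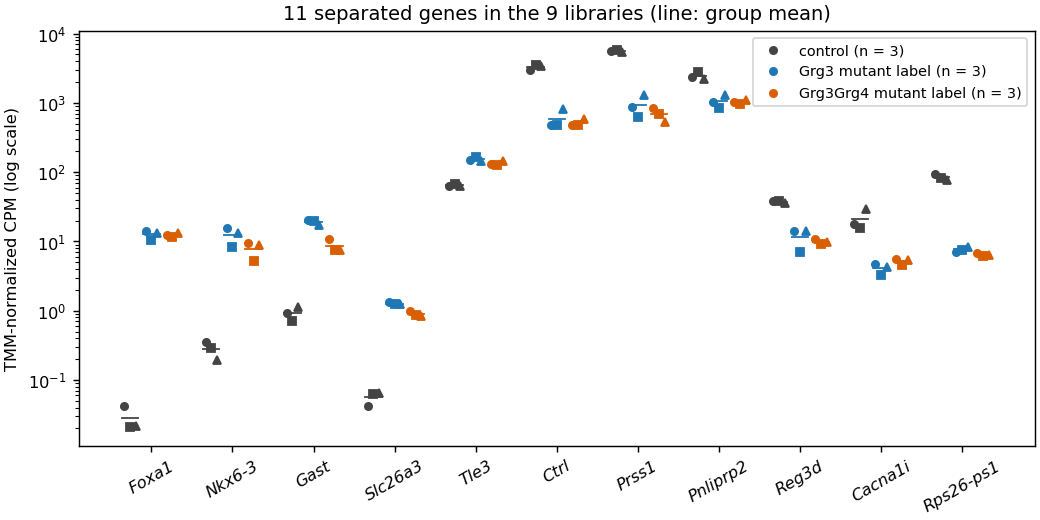
TMM-normalized CPM on a log scale in each of the 9 libraries for 11 separated genes; grey points are controls, blue the libraries labelled Grg3 and orange those labelled Grg3Grg4, with a short line at each group mean and circles, squares and triangles for replicates 1, 2 and 3. Foxa1 goes from at most 0.04 CPM in controls to at least 10.5 CPM in every mutant library, and Ctrl from at least 2965 CPM to at most 809 CPM.

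The digestive enzyme genes were lower in the mutant libraries, and a small set of serine proteases was lower by far more than the rest. Of 36 acinar enzyme genes tested, 16 were separated lower and none higher, against 5.75% of all genes separated lower. Of the 36, 11 were called, all lower, against 1.32% of all genes called. The list's median log2 fold change was -0.52, and 1 member was above 0. The summed level of the list was 400351 to 458481 CPM in controls and 214773 to 407335 CPM in mutants. Grg3 replicate 3, at the top of the mutant range, lay inside the control range, and the other 5 mutant libraries lay below it at 314134 CPM or less. Because these genes take so large a share of the reads, the scaling was also computed without them, which gave 255 calls in place of 253.

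Ctrl, which encodes a chymotrypsin-like protease, stood at 2965, 3492 and 3440 CPM in controls, at 473, 485 and 809 CPM in Grg3 libraries and at 485, 473 and 577 CPM in Grg3Grg4 libraries. Its log2 fold change was -2.58 (SE 0.17, adjusted p = 8.41e-05). Pnliprp2, a lipase that digests galactolipids, stood at 2366, 2751 and 2243 CPM in controls and fell to 839 to 1301 CPM in mutants (log2 fold change -1.23, adjusted p = 0.00208). Rnase1, the secreted ribonuclease, stood at 6594, 7582 and 6811 CPM in controls and at 2419 to 4447 CPM in mutants (log2 fold change -1.05, adjusted p = 0.0148). Klk1, tissue kallikrein, had a log2 fold change of -1.18 (adjusted p = 0.0138), and Pla2g1b, the pancreatic phospholipase A2, one of -1.11 (adjusted p = 0.00962). Serpini2, a pancreas-specific serpin, had one of -1.14 (adjusted p = 0.0092), and the zymogen granule proteins Zg16 and Cuzd1 had -0.98 (adjusted p = 0.0274) and -0.74 (adjusted p = 0.0285). The calls of Ctrl, Pnliprp2, Prss1, Prss3 and Try4 held in each fit without 1 library. Those of Rnase1 and Klk1 were lost without any 1 control (adjusted p up to 0.107 and 0.0977) and those of Pla2g1b and Serpini2 without control 2 (0.0781 and 0.0733). Zg16 and Cuzd1 were each lost in 5 of the 9 fits (adjusted p up to 0.17 and 0.178) and with the sex term.

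Among members that were separated but not called, Cel, the bile salt-dependent lipase, stood at 25919 to 30981 CPM in controls and 8589 to 17930 CPM in mutants (log2 fold change -0.84, adjusted p = 0.0934). Cpb1, a carboxypeptidase, had a log2 fold change of -0.94 (adjusted p = 0.0721), Sycn, a zymogen granule protein, -0.87 (adjusted p = 0.0538) and Cela1, an elastase, -0.55 (adjusted p = 0.19). Cel passed the test when Grg3 replicate 2, its lowest library, was left out (adjusted p = 0.0217). Of 9 acinar transcription factors tested, Nr5a2 and Nr0b2 were separated lower, against 5.75% of all genes tested, and none was called. Nr5a2, a nuclear receptor that drives enzyme genes, stood at 81.6 to 85.1 CPM in controls and 51.1 to 80.1 CPM in mutants (adjusted p = 0.215). Ptf1a, the master regulator of the acinar lineage, was not separated, at 36.1 to 39.4 CPM in controls and 32.3 to 64.7 CPM in mutants (log2 fold change 0.22, adjusted p = 0.596). Of 10 Reg and acinar injury genes tested, 4 were separated lower, Reg1, Reg2, Reg3d and Tff2, and only Reg3d was called. Over all genes tested, 5.75% were separated lower and 1.32% called. Reg3d, a secreted C-type lectin, stood at 38.0, 38.9 and 35.9 CPM in controls, at 14.0, 7.08 and 14.2 CPM in Grg3 libraries and at 10.8, 9.33 and 9.81 CPM in Grg3Grg4 libraries (log2 fold change -1.79, SE 0.18, adjusted p = 0.00121), in each fit without 1 library. Tmed11, a p24 family protein of the secretory path, fell from 65.0 to 75.3 CPM in controls to 13.9 to 28.0 CPM in mutants (log2 fold change -1.90, adjusted p = 0.0017), also in each such fit.

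The trypsinogen genes lie in a row on chromosome 6 and did not move as 1 block. The promoter windows of 4 genes that fell most and of Prss2, which was not separated, are shown for comparison. Capitals mark CACCTG on either strand, an E-box of the kind that basic helix-loop-helix factors bind.
Prss1: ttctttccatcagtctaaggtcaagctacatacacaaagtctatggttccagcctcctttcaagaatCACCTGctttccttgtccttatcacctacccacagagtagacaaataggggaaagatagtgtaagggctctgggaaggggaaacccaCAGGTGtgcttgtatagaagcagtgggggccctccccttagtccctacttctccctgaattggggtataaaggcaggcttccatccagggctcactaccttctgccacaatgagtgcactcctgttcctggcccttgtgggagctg
Gm5771: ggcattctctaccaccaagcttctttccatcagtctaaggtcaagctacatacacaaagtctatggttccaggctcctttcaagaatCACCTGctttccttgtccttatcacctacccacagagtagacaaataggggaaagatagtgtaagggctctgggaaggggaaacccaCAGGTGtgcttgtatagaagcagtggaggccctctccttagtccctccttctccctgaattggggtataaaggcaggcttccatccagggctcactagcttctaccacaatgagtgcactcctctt
Prss3: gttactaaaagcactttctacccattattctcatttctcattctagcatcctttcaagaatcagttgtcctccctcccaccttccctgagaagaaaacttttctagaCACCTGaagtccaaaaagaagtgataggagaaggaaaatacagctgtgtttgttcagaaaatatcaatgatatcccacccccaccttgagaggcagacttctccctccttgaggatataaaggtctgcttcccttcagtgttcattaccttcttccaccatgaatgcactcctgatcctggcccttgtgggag
Gm10334: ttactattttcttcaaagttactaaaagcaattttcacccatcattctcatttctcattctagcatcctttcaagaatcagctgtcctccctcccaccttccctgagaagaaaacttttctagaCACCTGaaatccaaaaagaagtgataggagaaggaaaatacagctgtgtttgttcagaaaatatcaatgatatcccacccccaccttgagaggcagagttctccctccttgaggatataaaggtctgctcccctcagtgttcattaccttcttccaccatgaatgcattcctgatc
Prss2: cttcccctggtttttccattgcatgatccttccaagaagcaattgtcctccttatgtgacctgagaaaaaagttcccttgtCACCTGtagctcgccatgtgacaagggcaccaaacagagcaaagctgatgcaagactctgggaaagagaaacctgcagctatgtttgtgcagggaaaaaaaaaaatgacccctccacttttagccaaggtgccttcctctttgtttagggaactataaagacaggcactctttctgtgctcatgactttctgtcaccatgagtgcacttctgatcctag
The windows are chr6:41458680-41458979 for Prss1, chr6:41392106-41392405 for Gm5771 and chr6:41521526-41521825 for Prss2 on the plus strand, and chr6:41377564-41377863 for Prss3 and chr6:41446048-41446347 for Gm10334 on the minus strand (RefSeq, GRCm38.p6, 250 bases before to 50 after the start). The capitals start at base -183 and -96 in Prss1, -163 and -76 in Gm5771, -143 in Prss3, -126 in Gm10334 and -169 in Prss2. Without gaps, Prss1 and Gm5771 shared 273 of 280 bases (97.5%) and Prss3 and Gm10334 shared 242 of 283 (85.5%). Prss1 and Gm5771 shared 36.2% to 41.1% with Prss3 and Gm10334, although all of these fell. Prss2 shared at most 40.0% with any of the other windows compared, Try4 included, so low likeness was not particular to it. Of the acinar enzyme genes with a window, CACCTG stood in 10 of 14 that were separated lower and in 5 of 15 that were not separated. Among all genes tested that had a window, 22.3% held it. For separated and called genes with a window the share was 38.8% on the lower and 31.6% on the higher side. These are counts of letters, and no binding was measured.

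Prss1 (41458932 to 41463786) stood at 5618, 5781 and 5440 CPM in controls, at 866, 618 and 1310 CPM in Grg3 libraries and at 843, 680 and 537 CPM in Grg3Grg4 libraries. Its log2 fold change was -2.79 (SE 0.23, adjusted p = 2.77e-04). Gm5771 (41392356 to 41397230) stood at 2782, 3147 and 2877 CPM in controls and 278 to 609 CPM in mutants, with a log2 fold change of -2.90 (SE 0.21, adjusted p = 1.25e-04). Gm10334 and Prss3 had log2 fold changes of -2.78 (SE 0.27, adjusted p = 8.79e-04) and -2.35 (SE 0.21, adjusted p = 4.83e-04). Try4 fell by 1.26 on the log2 scale (adjusted p = 0.00553), the trypsinogen-like gene 2210010C04Rik by 0.95 (adjusted p = 0.040) and the pseudogene Gm5409 by 1.11 (adjusted p = 0.0138). The Gm5771 and Gm10334 calls held in each fit without 1 library, the Gm5409 call was lost without control 2 or 3, and that of 2210010C04Rik was lost in 6 of the 9 fits. Try10 was separated lower but not called (log2 fold change -0.84, adjusted p = 0.0582). Try5 was not separated (log2 fold change -0.49, adjusted p = 0.212). Prss2 (41521787 to 41525079) was the last gene of the row and stood at 8351, 8583 and 7868 CPM in controls, at 7371, 5094 and 9223 CPM in Grg3 libraries and at 6217, 6565 and 8594 CPM in Grg3Grg4 libraries. Its sides overlapped, and its log2 fold change was -0.20 (SE 0.19, adjusted p = 0.613). Copies this alike can share reads. In each library, 15.8% to 20.7% of the reads stood in the row for reads without a unique alignment, which was dropped here. How many of them came from these genes is not known, and no source used here says whether any were also counted in a gene. The levels of Prss1 and Gm5771, and of Prss3 and Gm10334, are therefore uncertain.

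**Figure D3:**
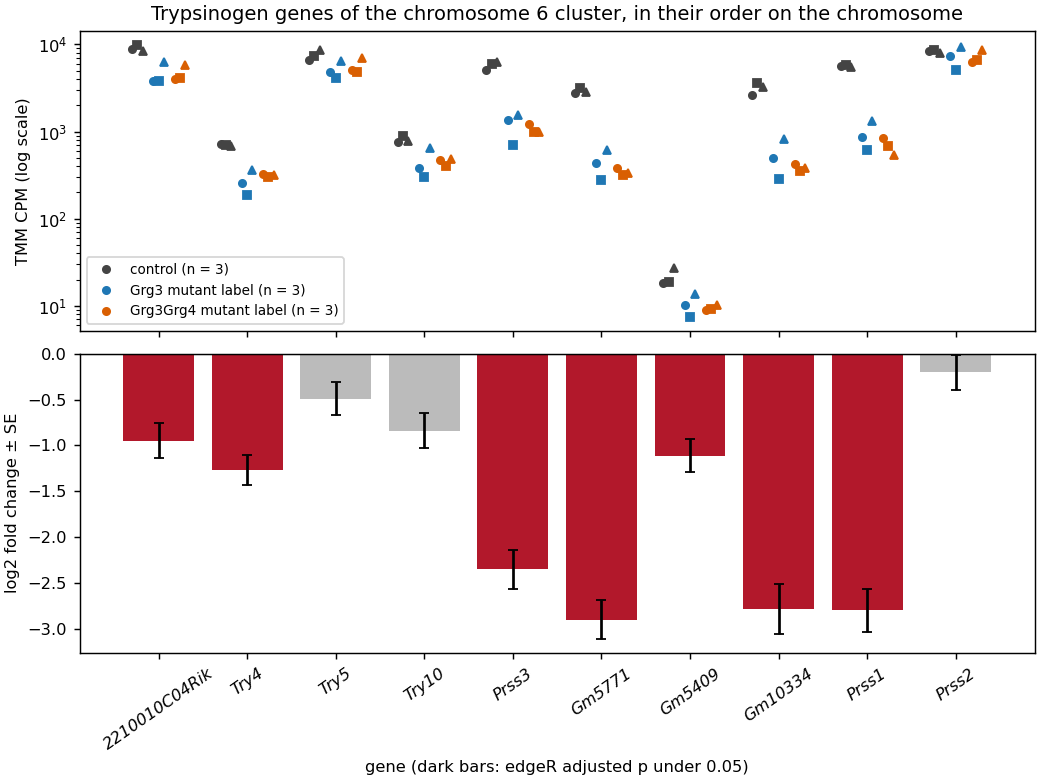
Upper panel, TMM CPM on a log scale of 10 trypsinogen genes in each library, in their order along chromosome 6, with grey, blue and orange for control, Grg3 and Grg3Grg4 labels (3 libraries each). Lower panel, their log2 fold changes of mutant over control libraries with standard errors, dark where the adjusted p was under 0.05: Gm5771 stands at -2.90, and Prss2 at the end of the row at -0.20.

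Genes of mature beta cells were lower too, with few calls. Of 26 beta cell genes tested, 12 were separated lower and 1 higher (Ttr), against 5.75% and 4.91% of all genes tested. Of the 26, 3 were called, all lower, against 1.32% of all genes called. The median log2 fold change was -0.53, with -0.33 for the Grg3 label and -0.91 for the Grg3Grg4 label. Cacna1i, a T-type calcium channel subunit, stood at 17.6, 15.5 and 29.3 CPM in controls, at 4.81, 3.33 and 4.23 CPM in Grg3 libraries and at 5.55, 4.55 and 5.36 CPM in Grg3Grg4 libraries. Its log2 fold change was -2.17 (SE 0.20, adjusted p = 6.54e-04), and the call held in each fit without 1 library. Glp1r, the receptor of the incretin GLP-1, stood at 16.8, 18.1 and 21.5 CPM in controls and at 3.29 to 8.03 CPM in mutants (log2 fold change -1.80, adjusted p = 0.00603). G6pc2, the islet glucose-6-phosphatase subunit, stood at 29.4, 22.5 and 35.2 CPM in controls and at 5.95 to 13.3 CPM in mutants (log2 fold change -1.63, adjusted p = 0.0103). The call of Glp1r was lost without control 3 (adjusted p = 0.0503) and that of G6pc2 without control 1 or 3 (adjusted p up to 0.0785).

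Insulin itself did not pass the test. Ins2 stood at 2487, 2872 and 2698 CPM in controls, at 2352, 1756 and 1298 CPM in Grg3 libraries and at 734, 654 and 1418 CPM in Grg3Grg4 libraries, separated but with a log2 fold change of -0.97 at an adjusted p of 0.182. Ins1 was not separated, since Grg3 replicate 1 at 1547 CPM lay above control 1 at 1486 CPM (log2 fold change -0.87, adjusted p = 0.244). Pdx1, the pancreatic and beta cell homeodomain factor, was separated lower, at 40.3 to 42.7 CPM in controls and 22.7 to 36.5 CPM in mutants (log2 fold change -0.40, adjusted p = 0.161). Mafa, an activator of insulin transcription, was separated by a narrow gap, at 28.7 to 33.3 CPM in controls and 10.6 to 28.2 CPM in mutants (adjusted p = 0.212). Nkx6-1, a beta cell factor that recruits Groucho proteins, was not separated (log2 fold change 0.30, adjusted p = 0.378).

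Other islet genes were less uniform. Of 16 genes of alpha, delta, PP and epsilon cells, 2 were separated lower, Gcg and Pou3f4, and Pou3f4 was called. Over all genes tested, 5.75% were separated lower and 1.32% called. Pou3f4, an alpha cell POU factor, stood at 3.55, 4.00 and 4.11 CPM in controls and 1.10 to 2.26 CPM in mutants (log2 fold change -1.14, adjusted p = 0.0387). Its call was lost in 7 of the 9 fits without 1 library (adjusted p up to 0.189) and with the sex term. Gcg, the glucagon gene, stood at 932, 1244 and 1140 CPM in controls, and its highest mutant library, Grg3Grg4 replicate 3, came to 925 CPM (log2 fold change -0.69, adjusted p = 0.182). None of 16 endocrine progenitor genes was separated. Neurog3, which starts the endocrine program, had a log2 fold change of 0.57 (adjusted p = 0.263). Of 26 neuroendocrine granule genes, 6 were separated lower, 1 higher (Vamp2) and 1 called, against 5.75%, 4.91% and 1.32% of all genes tested. Their median was -0.45. The call was Ptprn2, a dense-core granule phosphatase-like protein (log2 fold change -0.57, adjusted p = 0.0469), lost in 7 of the 9 fits (adjusted p up to 0.221). Chga, chromogranin A, stood at 400, 525 and 457 CPM in controls and 94.4 to 258 CPM in mutants (log2 fold change -1.34, adjusted p = 0.0598). It passed the test without Grg3 replicate 2 or Grg3Grg4 replicate 2 (adjusted p down to 0.0402).

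Duct genes stayed near the background. Of 29 duct and trunk progenitor genes tested, 1 was separated higher (Hes1) and 3 lower (Cdh1, Muc1 and Onecut1). Over all genes tested the shares were 4.91% and 5.75%. None of the 29 was called, and their median was -0.01. Sox9, the duct and progenitor factor, was not separated, at 101 to 106 CPM in controls and 72.5 to 111 CPM in mutants (log2 fold change -0.15, adjusted p = 0.535), and its sign turned without TMM scaling (0.07).

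Genes of the liver rose by large factors. Of 27 liver genes tested, 20 were separated higher and none lower, against 4.91% of all genes separated higher. Of the 27, 15 were called, against 1.32% of all genes called, and the median log2 fold change was 5.26. Alb, serum albumin, stood at 5.47, 2.37 and 2.49 CPM in controls, at 636, 37.9 and 220 CPM in Grg3 libraries and at 257, 362 and 810 CPM in Grg3Grg4 libraries (log2 fold change 6.81, SE 0.98, adjusted p = 0.0092). Afp, the fetal serum protein, had a log2 fold change of 6.59 (adjusted p = 0.0126) and Apoa1, the main apolipoprotein of HDL, one of 6.78 (adjusted p = 0.0134). Fga and Fgg, chains of fibrinogen, had 5 reads each in controls against 14733 and 8146 in mutants, ratios of 1190 (exact 95% interval 510 to 3665) and 658 (282 to 2027). Apoh, a phospholipid-binding plasma protein, had 2 reads against 3170, a ratio of 640 (177 to 5287), and Kng1, kininogen, 8 against 4262, a ratio of 215 (109 to 499). Other plasma protein genes, outside the list and named because they were called, were Plg (plasminogen, log2 fold change 5.88, adjusted p = 0.0157), Serpinc1 (antithrombin, 5.35, adjusted p = 0.0396) and Pzp (a pregnancy zone protein, 4.95, adjusted p = 0.0362). Selenop, which encodes a selenium carrier of plasma, was called in the other direction (log2 fold change -1.05, adjusted p = 0.0154). Plg, Serpinc1, Pzp and Selenop come from no list and say nothing of plasma protein genes at large. The summed level of the list was 522 to 604 CPM in controls and 706 to 2697 CPM in mutants.

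These liver values differed widely among the mutant libraries. Of the 20 separated liver genes, all but Ttr were lowest in Grg3 replicate 2, and for these 19 the highest mutant library held 6.64 to 40.5 times the CPM of the lowest. For Foxa1 that ratio was 1.37 and for Tle3 1.32. Ttr, which is also an islet gene, was the exception with a ratio of 1.41, at 199 to 220 CPM in controls and 238 to 335 CPM in mutants (adjusted p = 0.0606). The calls of Afp, Apoa1, Fga, Fgg, Apoh, Kng1 and Plg were lost without any 1 control (adjusted p up to 0.115), those of Alb and Ahsg without control 2 or 3 (up to 0.0781 and 0.121), that of Pzp also without Grg3 replicate 1 (up to 0.19) and that of Serpinc1 in 6 of the 9 fits (up to 0.189). With limma voom, Alb and Afp kept their calls, while Fga (adjusted p = 0.223), Fgg, Apoh, Kng1, Ahsg, Apoa1, Plg, Serpinc1 and Pzp did not pass. The part that liver tissue beside the pancreas had in these levels was not tested. Gdf2, which encodes BMP9, had no read in controls and 170 in mutants, so its level was at least 22.9-fold higher than 3 reads over the controls would give (adjusted p = 0.0469). That call was lost in 7 of the 9 fits (adjusted p up to 0.18).

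**Figure D4:**
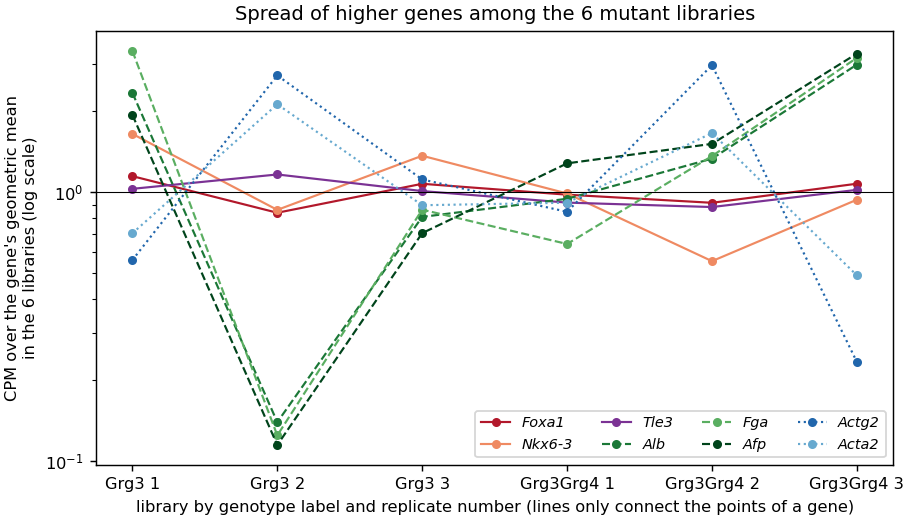
For 8 genes that were higher in mutants, the CPM of each mutant library over the gene's geometric mean in the 6 mutant libraries, on a log scale; solid lines are Foxa1, Nkx6-3 and Tle3, dashed lines the liver genes Alb, Fga and Afp, and dotted lines the smooth muscle genes Actg2 and Acta2. The liver genes dip together in Grg3 replicate 2, the smooth muscle genes peak in Grg3 replicate 2 and Grg3Grg4 replicate 2, and Foxa1 and Tle3 stay level.

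Smooth muscle genes were also higher in the mutant libraries, and in another order of libraries. Of 14 tested, 9 were separated higher, against 4.91% of all genes tested. Actg2 was called, against 1.32% of all genes, and the median was 1.33. Actg2, enteric smooth muscle actin, stood at 6.34, 4.79 and 3.43 CPM in controls, at 28.3, 138 and 56.5 CPM in Grg3 libraries and at 42.8, 150 and 11.8 CPM in Grg3Grg4 libraries (log2 fold change 3.87, SE 0.80, adjusted p = 0.0462). The call was lost in 6 of the 9 fits (adjusted p up to 0.221) and with the sex term. Myh11, smooth muscle myosin, stood at 18.3 to 21.4 CPM in controls and 38.5 to 227 CPM in mutants (log2 fold change 2.60, adjusted p = 0.0538), and it passed without Grg3Grg4 replicate 2 or 3 (adjusted p down to 0.0286). Acta2 was separated by a gap of 0.02, at 57.3 to 91.0 CPM in controls and 92.2 to 399 CPM in mutants (adjusted p = 0.107). Of 18 striated muscle genes, 7 were separated higher, against the same 4.91%, and none was called. Their median was 4.72, with 1.93 for the Grg3 label and 5.61 for the Grg3Grg4 label. Actc1, cardiac actin, stood at 0.04 to 0.26 CPM in controls, at 0.892 to 5.32 CPM in 5 mutant libraries and at 172 CPM in Grg3Grg4 replicate 2 (adjusted p = 0.162), and it passed once that library was left out (adjusted p = 0.0318).

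**Figure D5:**
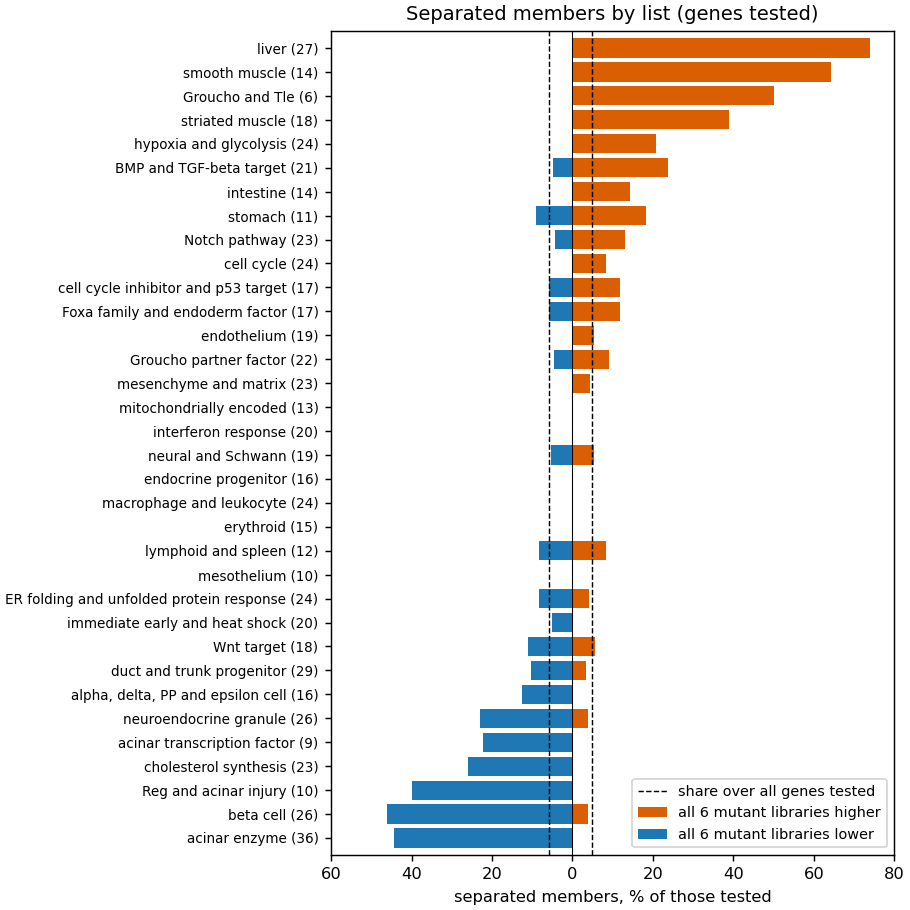
For each of 34 gene lists, with the number of genes tested in brackets, the bar to the right gives the share of members with all 6 mutant libraries above every control and the bar to the left the share with all 6 below. Dashed lines give the shares over all genes tested, 4.91% and 5.75%; the liver, smooth muscle and Groucho lists reach farthest right, and beta cell and acinar enzyme lists farthest left.

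Of the lists of other cell types, mesenchyme and matrix (23 genes) and endothelium (19) had 1 separated gene each, Mgp and Egfl7, both higher, with medians of 0.02 and -0.05. None of 10 mesothelial genes was separated (median 0.00). None of 15 erythroid genes was separated either, but 14 of them were above 0, with a median of 1.17, and of 24 macrophage and leukocyte genes 19 were above 0 and none was separated, with a median of 0.35. Of 12 lymphoid and spleen genes 11 were above 0, with a median of 0.98, and Rag1 was separated higher and Cd3e lower. Over all genes tested, 4.91% were separated higher and 5.75% lower, and none of these list members was called. The plot of list shares sets these beside the acinar, islet, liver and muscle lists.

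Of the genes of signals that act through Groucho partners, Id1 and Skil, both BMP and TGF-beta targets, and the partner factor Prdm1 were called. Over all genes tested, 1.32% were called. Of 23 Notch pathway genes, 3 were separated higher (Hes1, Hey1 and Jag1) and 1 lower (Maml3), against 4.91% and 5.75% of all genes tested. None of the 23 was called. Hey1, a Notch effector, stood at 8.50 to 10.03 CPM in controls and 11.3 to 18.6 CPM in mutants (log2 fold change 0.65, adjusted p = 0.0756). Hes1, the main Notch effector of pancreatic progenitors, was separated by a gap close to 0, with 34.9 to 40.0 CPM against 40.0 to 59.3 CPM (adjusted p = 0.187). Of 18 Wnt targets, Axin2 was separated higher (log2 fold change 0.23, adjusted p = 0.248) and Ccnd1 and Tnfrsf19 lower, and none was called. Of 21 BMP and TGF-beta targets, 5 were separated higher (Atoh8, Id1, Id2, Id3 and Nog) and 1 lower (Skil), against 4.91% and 5.75% of all genes tested, and 17 were above 0, with a median of 0.42 against 0.03 over all genes. Id1, an inhibitor of helix-loop-helix factors induced by BMP, stood at 23.5, 29.0 and 22.0 CPM in controls and 31.6 to 44.7 CPM in mutants (log2 fold change 0.64, adjusted p = 0.0464). Skil, a co-repressor of Smad proteins, stood at 36.6, 34.8 and 35.5 CPM in controls and 25.0 to 28.4 CPM in mutants (log2 fold change -0.39, adjusted p = 0.0188). The Id1 call was lost in 6 of the 9 fits (adjusted p up to 0.225) and the Skil call without any 1 control (up to 0.118) or without TMM scaling (adjusted p = 0.286). Of 22 genes tested of the list named Groucho partner factors, Hes1 and Hey1 were separated higher and Prdm1 lower, and Prdm1 was called. Prdm1, which encodes the repressor Blimp1, stood at 4.53, 3.94 and 5.59 CPM in controls and 1.61 to 2.65 CPM in mutants (log2 fold change -1.14, adjusted p = 0.0182), and its call was lost without any 1 control (adjusted p up to 0.147) and with the sex term.

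Metabolic lists leaned in opposite directions without calls. Of 23 cholesterol synthesis genes, 6 were separated lower, against 5.75% of all genes tested. None was called, and 1 was above 0, with a median of -0.35. Cyp51, a sterol demethylase, stood at 137 to 165 CPM in controls and 89.3 to 126 CPM in mutants (log2 fold change -0.45, adjusted p = 0.105). Of 24 hypoxia and glycolysis genes, 5 were separated higher (Eno1, Hk1, Ldha, Pgam1 and Pgk1), against 4.91% of all genes tested. None was called, and the median was 0.29. Ldha, lactate dehydrogenase, stood at 432 to 452 CPM in controls and 485 to 786 CPM in mutants (log2 fold change 0.43, adjusted p = 0.155), and it passed without TMM scaling, which moved the median of all genes to 0.25. Hspa8, the constitutive heat shock cognate, stood at 650, 770 and 726 CPM in controls and at 495 to 518 CPM in mutants (log2 fold change -0.49, adjusted p = 0.0184). It was the only one of 20 immediate early and heat shock genes to be separated, and its call was lost without control 2 or 3 (adjusted p up to 0.156), with the sex term and without TMM scaling (adjusted p = 0.0986).

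Some of the sharpest separations were at pseudogenes and genes of unknown role. Rps26-ps1, a processed copy of a ribosomal protein gene on chromosome 8, stood at 95.6, 82.8 and 78.0 CPM in controls, at 7.14, 7.60 and 8.29 CPM in Grg3 libraries and at 6.90, 6.13 and 6.28 CPM in Grg3Grg4 libraries (log2 fold change -3.60, SE 0.10, adjusted p = 1.57e-08). Its call held under every alternative run. The parent Rps26 leaned the other way, at 489 to 604 CPM in controls and 638 to 875 CPM in mutants (log2 fold change 0.43, adjusted p = 0.117). Rpl34 and its copies showed the same contrast. Rpl34 had a log2 fold change of 0.81 (adjusted p = 0.0178), while Rpl34-ps1 had -2.05 (adjusted p = 2.42e-04) and Rpl34-ps2 -1.43 (adjusted p = 0.0497). The call of Rpl34-ps1 held in each fit without 1 library, that of Rpl34 was lost without any 1 control (adjusted p up to 0.128) and that of Rpl34-ps2 in 8 of the 9 fits (up to 0.219). The pseudogene Gm8730 moved up, from 19.3 to 22.1 CPM in controls to 87.3 to 166 CPM in mutants (log2 fold change 2.55, adjusted p = 2.64e-04). Reads of a parent gene and its copies are hard to tell apart, so the split between them is uncertain. Rps26-ps1 lies within Wwp2, which is on the opposite strand and was not separated. Ifi202b, an interferon-inducible gene on chromosome 1, had 86, 67 and 88 reads in controls and no read in any mutant library. Its level in controls was at least 199-fold higher than 3 reads over the 6 mutant libraries would give (adjusted p = 0.00214). On chromosome 8, Gm8730 starts at 102864845, the acinar gene Ctrl at 105932003 and Rps26-ps1 at 107439131 (GRCm38). The embryos were of a mixed strain. The part that strain background had in the values of Ifi202b, these pseudogenes, Ctrl, the trypsinogen row or other genes was not tested.

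The contrast between the 2 mutant labels was also fitted. Between them, 36 of 19166 genes were called (0.188%), 25 higher with the Grg3Grg4 label and 11 lower, and 3319 had an unadjusted p under 0.05, while DESeq2 called 1019. The rule asks for all 6 mutant libraries on 1 side and a small spread among them, which selects against genes that differ between the labels, so the values for the 248 genes are a description. Of the 248 separated and called genes, Gast was the 1 that differed between the labels (log2 fold change of Grg3Grg4 over Grg3 -1.15, adjusted p = 0.0478), and 26 had an unadjusted p under 0.05. For 221 of the 248 the CPM ranges of both labels overlapped. The ranges lay apart in 10.9% of the 248, against 21.1% of all genes tested. Among the 107 higher genes the Grg3Grg4 libraries lay all beyond the Grg3 libraries in 5 and the reverse held in 8. Among the 141 lower genes these counts were 8 and 6. Shares over all genes tested were not computed for each direction. A fit with 1 mean per label raised the number of genes called against control from 253 to 397. Across the 6 mutant libraries, the highest held a median of 2.03 times the CPM of the lowest in the higher genes and 1.51 times in the lower ones.

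At the edge of the rule, the separated and called genes with the smallest gaps were Cfi, Noxa1 and Id1 on the higher side, with gaps of 0.08, 0.07 and 0.12, and Slc15a2, Ppm1l and Fam81a on the lower side, with 0.04, 0.12 and 0.13. Cfi, complement factor I, stood at 35.9 to 38.1 CPM in controls and 40.3 to 96.3 CPM in mutants. The 5 genes that were called but just not separated were Gm9008 on the higher side and Gm13453, Gm1821, Gm6166 and Gm8797 on the lower. In each of these, 1 library lay with the other side. Gm9008 stood at 5.40 to 7.13 CPM in 5 mutant libraries and at 0.12 CPM in Grg3 replicate 3, within the control range of 0.08 to 0.22 CPM. Control 2 was the odd library for Gm13453 (0.40 CPM against 6.03 and 5.12 CPM) and Gm6166 (1.42 against 36.7 and 35.4 CPM), and control 1 for Gm1821 (48.1 against 183 and 171 CPM) and Gm8797 (0.83 against 37.9 and 33.4 CPM).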

How the data were processed

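Raw read counts per gene symbol were analysed as the authors deposited them, 1 table for each of 9 libraries. HTSeq, HISAT2, Trim Galore, FastQC, DESeq2 and bedtools are listed in the submitters' processing notes, with mm10 and GRCm38 as builds and without versions. No source used here gives the annotation or the strand setting, so reads of overlapping genes on opposite strands may be mixed. The 5 rows that name no gene, 28.5% to 33.2% of the reads in a library, were dropped. Among them was the row of reads without a unique alignment, 15.8% to 20.7% of the reads. With R 4.3.3 and edgeR 4.0.16, counts were scaled by TMM, genes were kept by filterByExpr (minimum count 10, minimum total 15), and a quasi-likelihood F test compared 6 mutant with 3 control libraries over 19166 genes. P-values were adjusted by Benjamini-Hochberg, and called means an adjusted p under 0.05. The standard error is the absolute log2 fold change divided by the square root of F. Separation was described without a test. The contrast of Grg3Grg4 with Grg3 came from a fit with 1 mean per label. Nothing says whether replicates were separate litters, so p-values measure the spread between these libraries. Within each group the libraries were not repeats of 1 library by counts (chi-square per degree of freedom 18.6 to 216 between them), so each counted as 1 replicate.

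Ratios for genes with under 10 reads on a side use summed reads, with exact binomial 95% intervals that cover counting error only. Where a side had no read, a floor of 3 reads over that side was used. Positions came from GENCODE M21 (99.1% of tested genes placed) and promoter windows from RefSeq on GRCm38.p6. DESeq2 1.42.0, limma 3.58.1, other scalings and filters, a replicate block, sex and each library left out were alternatives. The members and the 35 gene lists were chosen with earlier results of these data known. Genes were named by a rule: up to 20 separated and called genes each way by fold change with at least 5 CPM on the higher side, up to 5 per list by p, set Groucho, Foxa and islet genes, genes just inside or outside the rule, and the widest gaps. The text names a selection of them, and some others were added after their values were seen, among them Ttc6, Rpl34, Rps26, Gm8730, Shisa9, Col2a1, list members that were separated but not called, and members of the trypsinogen row.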

Additional observations from a re-analysis of the deposited data

Results flagged for a closer look

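Of 135 items checked for a library far from the other 5 of the mutant side (124 genes and 11 summed lists), 10 had one. The cutoff flags about 1 in 20 items when values are normal and items independent. These CPM need not be normal, the genes were selected and some items overlap, so that rate is no measure of chance here. In Grg3Grg4 replicate 2, Actc1 stood at 172 CPM against 0.892 to 5.32 CPM in the others, and the summed striated muscle list at 3042 CPM against 18.4 to 99.3 CPM. In the same library Hspa8 was lowest at 495 CPM, just under the 509 to 518 CPM of the rest. Grg3 replicate 2 had the lowest Cel, 8589 CPM against 15693 to 17930 CPM, the highest Gabrp, 3.46 CPM against 0.822 to 1.78 CPM, and the highest summed mesenchyme and matrix list, 21233 CPM against 13625 to 15200 CPM. Grg3 replicate 3 had the highest Ctrl of the mutant side, 809 CPM against 473 to 577 CPM, and the lowest Gm9008, 0.12 CPM against 5.40 to 7.13 CPM. Grg3 replicate 1 had the highest Ppm1l at 25.8 CPM against 21.8 to 23.0 CPM. Gdf2 reached 1.41 CPM in Grg3Grg4 replicate 3 against 0.165 to 0.523 CPM. Gast was the named gene that differed between the mutant labels by edgeR's test, with a log2 fold change of Grg3Grg4 over Grg3 of -1.15 (adjusted p = 0.0478).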

How the results depend on the processing

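Against 253 calls, there were 253 with DESeq2's size factors, 255 with acinar genes left out of scaling, 258 without a filter and 264 with a minimum of 1 CPM, and of the 248 separated and called genes 246, 246, 208 and 231 stayed called. The count moved to 797 without TMM (708 higher and 89 lower), which also moved separated genes to 3468 (3252 higher and 216 lower) and the median of all genes to 0.25. It was 1149 with DESeq2's Wald test, 802 with limma voom, 397 with 1 mean per label, 144 with a sex term, 11 in males and 37 in females. In 5 male and 4 female libraries, 8260 and 8921 genes were separated, since fewer libraries had to agree. Leaving out 1 library gave 45 to 430 calls and 2407 to 3655 separated genes. Between the mutant labels, the 36 calls became 21 without TMM, 228 without a filter, 75 with 1 CPM, 1019 with DESeq2, 4 with the sex term, 11 with the replicate block, and 7 to 50 with 1 library left out, and the cause was not tested.

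The replicate block gave 175 calls against control, 153 of them among the 248 separated and called genes. Libraries with the same number did not deviate together (correlations of -0.09 to 0.09), and the main fit did not pair them. With 3 libraries in each group, these correlations cannot tell whether libraries of the same number shared a litter or batch. Signs turned for Aes (0.12) and Sox9 (0.071) without TMM and for Tle6 (-0.020) in males, none of them called. At depths of 46817453 reads or more, ratios of genes near 0 reads on a side, such as Foxa1 in controls, have wide intervals.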

Other observations

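Gabrp, a GABA receptor subunit of epithelia, and Cdhr1, a cadherin of photoreceptors, were lower in all 6 mutant libraries and belong to none of the lists. Gabrp stood at 5.11, 7.12 and 7.32 CPM in controls and 0.822 to 3.46 CPM in mutants (log2 fold change -1.94, adjusted p = 0.0329), and its call was lost in 6 of 9 fits without 1 library (adjusted p up to 0.164). Cdhr1 stood at 7.41 to 8.14 CPM in controls and 1.57 to 3.56 CPM in mutants (log2 fold change -1.60, adjusted p = 0.0092), lost without control 2 or 3 (adjusted p up to 0.0668). Hsd17b13, a lipid droplet enzyme, stood at 124, 72.5 and 117 CPM in controls and 21.1 to 43.8 CPM in mutants (log2 fold change -1.73, adjusted p = 0.00603), in each fit without 1 library. The long non-coding RNA 1810028F09Rik, on chromosome 14 (51142870 to 51144117, GRCm38) beside Rnase1 (51144998 to 51146785), stood at 390, 506 and 520 CPM in controls and 102 to 198 CPM in mutants (log2 fold change -1.59, adjusted p = 0.00553), also in each such fit.

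By class of gene, protein-coding genes made up 80.1% of genes tested and 88.3% of the 248 separated and called genes. Pseudogenes made up 7.86% and 6.05%, and long non-coding RNAs 8.56% and 4.03%. The share of separated genes ran from 8.84% to 12.9% over the autosomes and X, and no gene of the Y (7 tested) or of the mitochondrial genome (17 tested) was separated.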
